A study of Mus musculus with 11 samples.

Results

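Integrins are receptors that hold cells to the matrix around them, and laminins are large proteins of the basement membrane, the thin matrix sheet around vessels and along the brain surface. The table of gene counts held 42 protein-coding genes whose symbols match the integrin alpha, integrin beta or laminin naming pattern, of 27687 genes in all. They comprised 27 integrin chains, 11 laminin chains and 4 genes, Itgb1bp1, Itgb1bp2, Itgb1bp3 and Itgb3bp, that share the naming pattern but encode other proteins. The 4 chains Itgb2, Itgam, Itgal and Itgax, which are made by white blood cells, were kept apart from the other 38 genes.

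The genes were measured by RNA sequencing in 11 mouse high-grade gliomas, 9 with prolonged knockdown of Ezh2 and 2 controls without it. The tumours came from neural stem cells of the subventricular zone of 7-day-old mice with conditional p53, Ink4a/Arf, Krasv12 and LucR alleles, which lentiviral CMV-Cre recombined in culture. The cells, called glioma initiating cells, then received the doxycycline-responsive hairpin FH1-tUTG-shEzh2, were sorted for GFP and were injected into the brains of NOD-SCID mice. Both groups carried the hairpin and the recombined alleles. The labels give doxycycline at 2 mg/ml with 1% sucrose for all tumours while the series' text speaks of mice with and without it, so that an effect of the drug and one of the hairpin cannot be told apart. NOD-SCID hosts lack mature B and T cells but keep myeloid cells, and a bulk tumour library holds RNA of host vessels, white blood cells and brain beside that of the tumour cells.

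The libraries held between 11209233 and 18638382 counts. Levels are given as CPM, counts scaled to the size of the library with TMM factors, and 3 counts corresponded to between 0.162 and 0.273 CPM. Ezh2, the methyltransferase of Polycomb repressive complex 2 (PRC2), lay between 7.27 and 30.4 CPM in the knockdown tumours and at 45.3 and 52.7 CPM in the controls, so that the groups did not overlap (exact two-sided permutation p = 0.018, the smallest that 9 against 2 libraries allow). Without control 1 or control 2 the smallest possible p is 0.10, and that value was found. The neural stem markers Nes, Vim and Sox2 were read in every library, Vim at no less than 1712 CPM and Sox2 at no less than 14.7 CPM.

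Each integrin is a pair of 1 alpha and 1 beta chain, and the pair decides which matrix protein is bound. Each laminin is a trimer of 1 alpha, 1 beta and 1 gamma chain, and the alpha chain carries the main sites that integrins and dystroglycan bind. In the brain, laminins with the alpha2 chain lie in the membranes at astrocyte endfeet and pericytes, while those with alpha4 and alpha5 lie in the membrane of endothelial cells.

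The sequences upstream of 4 of these genes are shown because their levels moved most among the laminin chains, the collagen-binding integrins and the leukocyte integrins with an entry in the RefSeq promoter table (build GRCm38.p6), which held 26 of the 42 genes. PRC2 is known to bind chiefly at promoters rich in CpG, and capitals mark each CpG in the 250 bases before the annotated start, written 5′ to 3′ on the strand of the gene. The windows are chr10:27616943-27617192 (minus strand) for Lama2, chr13:115101965-115102214 (minus strand) for Itga1, chr7:128062390-128062639 (plus strand) for Itgam and chr7:128129300-128129549 (plus strand) for Itgax.
Lama2: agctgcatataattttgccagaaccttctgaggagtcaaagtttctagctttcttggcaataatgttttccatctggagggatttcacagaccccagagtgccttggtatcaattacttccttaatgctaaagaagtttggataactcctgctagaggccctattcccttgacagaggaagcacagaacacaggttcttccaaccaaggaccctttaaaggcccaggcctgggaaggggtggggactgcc
Itga1: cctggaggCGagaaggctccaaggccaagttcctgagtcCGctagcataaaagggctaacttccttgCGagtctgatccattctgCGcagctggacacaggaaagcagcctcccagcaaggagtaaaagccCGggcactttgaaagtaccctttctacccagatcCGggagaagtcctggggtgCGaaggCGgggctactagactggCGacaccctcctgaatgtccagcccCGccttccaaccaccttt
Itgam: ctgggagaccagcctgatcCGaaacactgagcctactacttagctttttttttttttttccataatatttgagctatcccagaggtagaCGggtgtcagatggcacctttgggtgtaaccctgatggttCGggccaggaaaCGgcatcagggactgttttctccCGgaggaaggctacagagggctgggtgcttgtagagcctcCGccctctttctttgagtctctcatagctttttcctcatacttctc
Itgax: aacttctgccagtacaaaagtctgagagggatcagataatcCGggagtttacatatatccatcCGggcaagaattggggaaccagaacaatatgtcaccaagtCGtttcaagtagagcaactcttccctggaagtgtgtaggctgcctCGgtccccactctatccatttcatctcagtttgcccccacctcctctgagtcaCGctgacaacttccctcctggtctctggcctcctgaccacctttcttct
The windows of Lama2 and Itga1, which both rose, held 0 and 10 CpG, against a median of 6 over all 32851 windows of this length. The windows of Itgam and Itgax, which both fell, held 6 and 5. Over the 29 windows of 26 genes the number ran from 0 to 22, with a median of 10. The letters GAGGAA, the core that the myeloid factor PU.1 binds, were searched on both strands and occurred 2 times in the Itgam window, 1 time in that of Lama2 and 0 times in those of Itga1 and Itgax. They were present in 14 of the 29 windows and in 23.3% of all windows.

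Of the 42 genes 38 passed the filter on low counts, and 14 of them differed between knockdown and control tumours, 4 higher and 10 lower (edgeR quasi-likelihood F-test over all genes that passed, threshold 0.05 after Benjamini-Hochberg adjustment). The background in the same test was 23.3% of the 16241 tested genes, with 10.3% higher and 13.0% lower. The median log2 fold change of the 38 genes was -0.002, against 0.07 for all tested genes. In 15 of the 38 genes the 9 knockdown tumours did not overlap the controls, 5 with the knockdown higher and 10 with it lower, where the background was 27.2% of tested genes. Without the 4 leukocyte integrins, 11 of 34 tested genes passed, 4 higher and 7 lower. Below the filter lay Itgb6, Itgb1bp3, Itgad and Itgb2l.

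**Figure D1:**
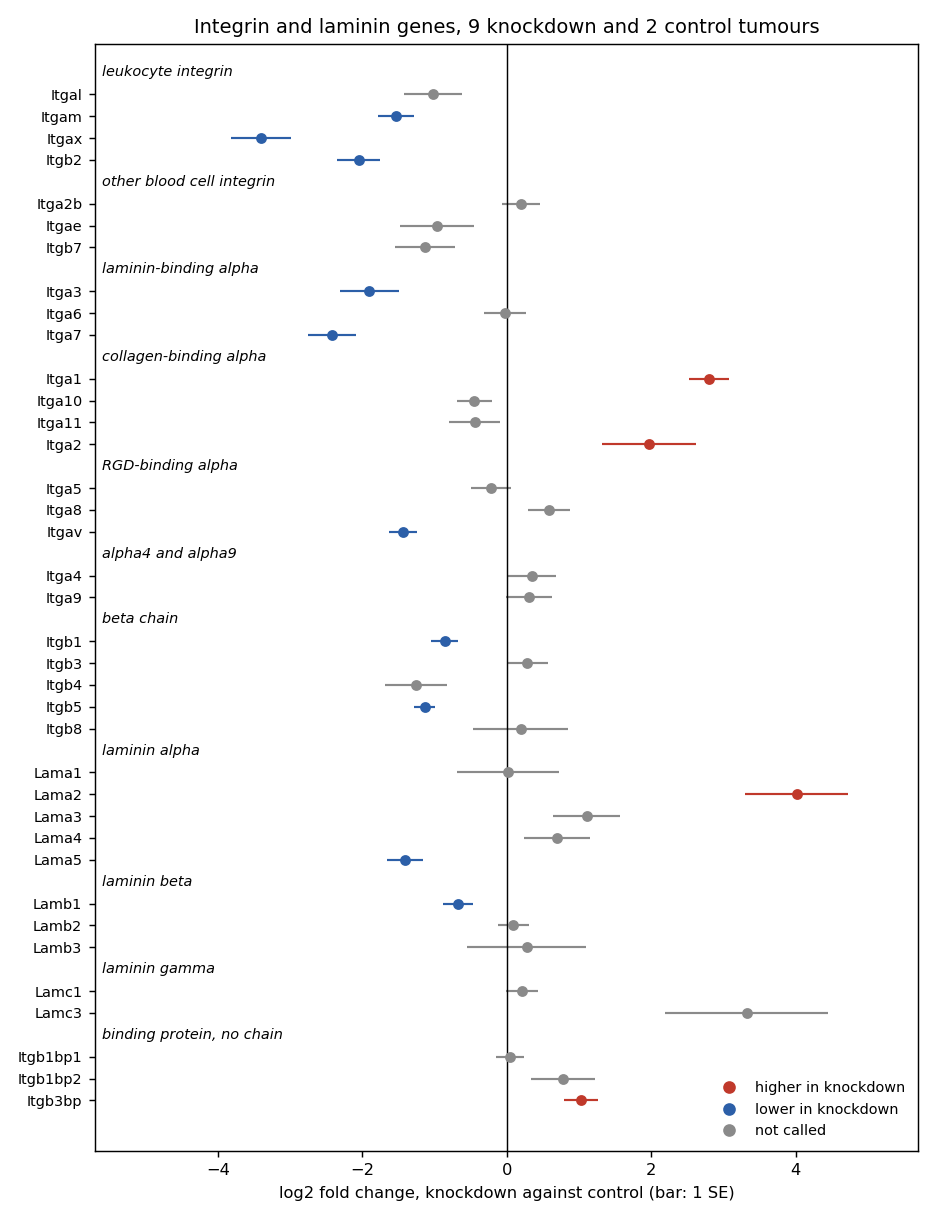
Log2 fold change of knockdown against control (horizontal axis, bar 1 SE) for the tested genes described here, grouped by the role of the chain; red and blue points passed the test. Lama2 lies farthest to the right at 4.01 and Itgax farthest to the left at -3.40.

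The laminin alpha chains moved in opposite directions. Lama2, the alpha2 chain whose loss causes a congenital muscular dystrophy (ENSMUSG00000019899, mm9 chromosome 10, 26701094 to 27336748), stood at 8.54 and 4.89 CPM in the controls and between 26.9 and 209 CPM in the knockdown tumours, with a median of 109 CPM. Every knockdown tumour was above both controls, the lowest being knockdown 3 and the highest knockdown 4. The fitted rise was 16.1-fold, a log2 fold change of 4.01 ± 0.72 (SE; edgeR, adjusted p = 0.0029). Lama5, the alpha5 chain of mature endothelial and epithelial membranes (mm9 chromosome 2, 179911078 to 179960564), stood at 598 and 510 CPM in the controls and between 102 and 285 CPM in the knockdown tumours (median 206). It fell 2.65-fold without overlap of the groups (log2 fold change -1.41 ± 0.25 SE; edgeR, adjusted p = 0.0029). Lama4, the alpha4 chain of vessels, was 109 and 154 CPM in the controls and 112 to 497 CPM in the knockdown tumours, and did not pass (0.69 ± 0.46 SE; edgeR, adjusted p = 0.30). Lama1, found in embryonic membranes, and Lama3, of the skin, were scarce at up to 7.27 and 3.06 CPM and did not pass either (0.02 ± 0.71 and 1.11 ± 0.46). The small value of Lama1 turned to -0.02 under the scalings of the RLE method and of DESeq2.

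**Figure D2:**
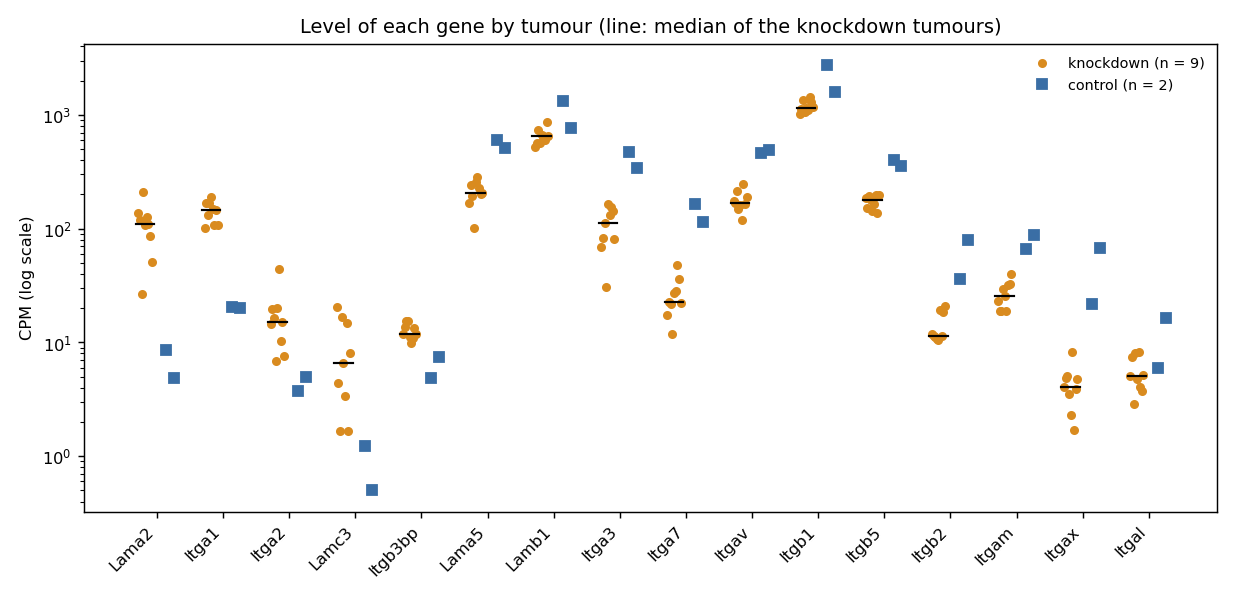
Level in CPM (vertical log axis) of the 14 genes that passed the test, with Lamc3 and Itgal, in each of the 9 knockdown tumours (circles, line at their median) and the 2 controls (squares). Lama2 and Itga1 lie above both controls in all 9 knockdown tumours, and Itgal overlaps them.

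Set per kilobase of exon, so that chains of different length can be compared, Lama5 made up 83.9% and 77.0% of the summed laminin alpha level in the controls and between 21.9% and 57.0% in the knockdown tumours. Lama2 made up 0.836% and 0.514% in the controls and between 4.97% in knockdown 9 and 31.3% in knockdown 4. The share of Lama4 was 14.4% and 21.9% in the controls and ran from 28.5% in knockdown 6 to 65.7% in knockdown 9. No knockdown tumour overlapped a control in any of these 3 shares. The summed alpha level was 62.6 and 58.2 CPM per kb in the controls and between 29.8 and 62.7 CPM per kb in the knockdown tumours, where knockdown 9 was the only one that reached a control. In knockdown 4 the highest Lama2 share went with the lowest level of Lama5, at 102 CPM. Because shares sum to a whole, a rise of 1 chain lowers the share of the others, and no test was run on them.

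**Figure D3:**
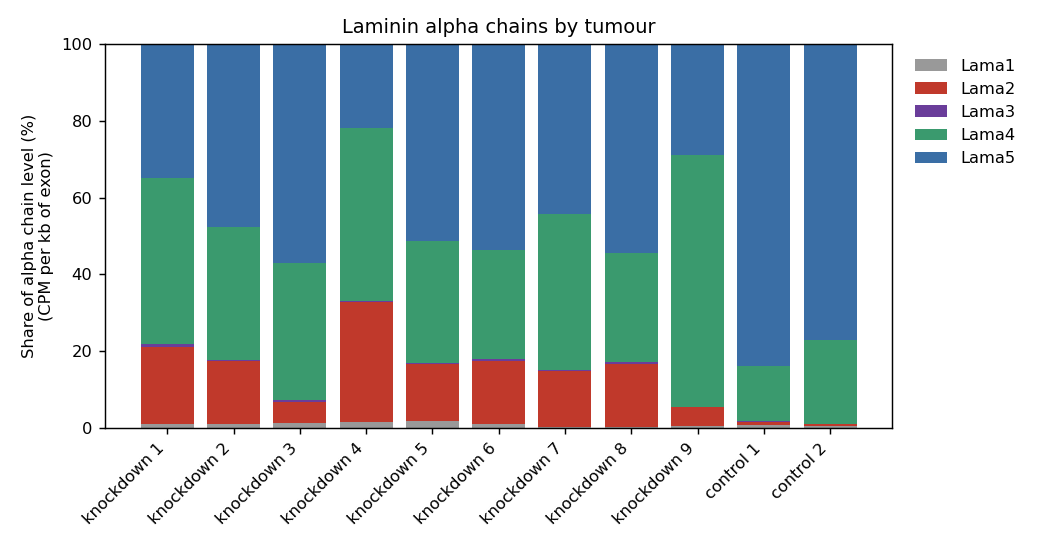
Share of each laminin alpha chain in the summed alpha level (vertical axis, percent, from CPM per kb of exon) in each tumour. Lama5 fills 77.0% or more of both control bars and no more than 57.0% of any knockdown bar.

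Among the beta and gamma chains Lamb1 passed the test, and it fell. Lamb1, the beta1 chain that most brain laminins hold, was 1313 and 763 CPM in the controls and 525 to 872 CPM in the knockdown tumours (median 657). It fell 1.60-fold (log2 fold change -0.68 ± 0.21 SE; edgeR, adjusted p = 0.035), although knockdown 8 lay above control 2. Leaving out control 1 gave -0.23 (adjusted p = 0.61, and between 0.015 and 0.61 over all alternatives), and it did not pass without any 1 of knockdown tumours 1, 2, 4 and 5. Lamb2, the beta2 chain of mature vessels, was 123 and 130 CPM in the controls and 83.2 to 166 CPM in the knockdown tumours (0.09 ± 0.21). Lamc1, the gamma1 chain of nearly all laminins, was 390 and 372 CPM in the controls and 326 to 708 CPM in the knockdown tumours (0.21 ± 0.23). Lamc3, the gamma3 chain, lay above both controls in every knockdown tumour, at 1.66 to 20.4 CPM against 1.23 and 0.501 CPM, but its spread was wide and it missed the threshold (3.32 ± 1.13 SE; edgeR, adjusted p = 0.052). It passed under 5 of 20 alternatives, among them without knockdown 3 and without knockdown 8, and the adjusted p over all alternatives ran from 0.0014 to 0.26. Lamb3, which pairs with Lama3 in the skin, stayed at or under 6.62 CPM and did not pass (0.27 ± 0.82). Of the 11 laminin chains, 1 rose and 2 fell, a share of 27.3% that was near the 23.3% of all tested genes.

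Among the alpha chains that bind laminin, Itga3 and Itga7 fell. Itga7, the alpha7 chain whose pair with beta1 is a receptor for alpha2 laminins (ENSMUSG00000025348, mm9 chromosome 10, 128370869 to 128395333), stood at 166 and 114 CPM in the controls and between 11.9 and 47.7 CPM in the knockdown tumours (median 22.5). It fell 5.36-fold with no overlap of the groups (log2 fold change -2.42 ± 0.33 SE; edgeR, adjusted p = 0.00066). Itga3, whose pair with beta1 binds alpha5 laminins (mm9 chromosome 11, 94905788 to 94938115), stood at 469 and 341 CPM in the controls and between 30.5 and 165 CPM in the knockdown tumours (median 113). It fell 3.73-fold, again with no overlap (-1.90 ± 0.41 SE; edgeR, adjusted p = 0.0074). Leaving out control 1 gave -1.65 (adjusted p = 0.10, and between 0.00071 and 0.10 over all alternatives). Knockdown 4, the tumour with most Lama2, held the least Itga3 and the least Itga7. Knockdown 3, with the least Lama2, held 113 CPM of Itga3 and 21.7 CPM of Itga7, near the medians, and a relation over the tumours was not tested. Itga6, the laminin receptor chain used as a marker of glioma stem cells, was 264 and 203 CPM in the controls and 135 to 299 CPM in the knockdown tumours, and its value of -0.02 ± 0.29 changed sign under 7 of 20 alternatives. Itgb4, the partner of Itga6 in hemidesmosomes, was 24.5 and 10.5 CPM in the controls and 3.38 to 13.99 CPM in the knockdown tumours (-1.26 ± 0.43 SE; edgeR, adjusted p = 0.055). It too passed under 5 of 20 alternatives, among them without knockdown 2, and the adjusted p over all of them ran from 0.027 to 0.64.

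Of the 4 alpha chains that bind collagen, Itga1 and Itga2 rose, and they are neighbours on chromosome 13. Itga1, whose pair with beta1 binds collagen IV and also laminin (ENSMUSG00000042284, mm9 chromosome 13, 115748287 to 115892172), stood at 20.3 and 20.2 CPM in the controls and between 101 and 190 CPM in the knockdown tumours (median 147). The rise was 6.96-fold (log2 fold change 2.80 ± 0.27 SE; edgeR, adjusted p = 0.00011), the smallest p among the integrin and laminin genes. It lay between 2.68 and 2.96 under all 20 alternatives. The gene model of Pelo lies within that of Itga1, and reads of the 2 genes could not be told apart where their exons overlap. Itga2 (mm9 chromosome 13, 115626124 to 115722249) stood at 3.77 and 5.01 CPM in the controls and between 6.92 and 44.5 CPM in the knockdown tumours (median 15.2), the highest being knockdown 6. It rose 3.91-fold, just past the threshold (1.97 ± 0.65 SE; edgeR, adjusted p = 0.047), and did not pass without control 1, control 2 or any 1 of knockdown tumours 1, 2, 3, 5 and 8, at adjusted p up to 0.28 (between 0.0051 and 0.28 over all alternatives). Itga10 (-0.45 ± 0.25) and Itga11 (-0.44 ± 0.35), chains of cartilage and fibroblasts, lay at or under 11.9 CPM in every tumour and did not pass.

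Of the chains that bind the RGD motif of fibronectin and vitronectin, Itgav and Itgb5 fell. Itgav, the alpha chain of several RGD receptors (ENSMUSG00000027087, mm9 chromosome 2, 83564554 to 83647073), stood at 465 and 491 CPM in the controls and between 118 and 247 CPM in the knockdown tumours (median 168). It fell 2.70-fold with no overlap (log2 fold change -1.43 ± 0.19 SE; edgeR, adjusted p = 0.00060). Its partner Itgb5 (mm9 chromosome 16, 33829751 to 33949239) stood at 402 and 356 CPM in the controls and between 138 and 197 CPM in the knockdown tumours (median 179), a fall of 2.20-fold (-1.14 ± 0.14 SE; edgeR, adjusted p = 0.00042). Of the further partners of Itgav, Itgb1 fell (-0.86 ± 0.19), Itgb6 lay under the filter, and 2 did not pass, Itgb3 at 0.28 ± 0.29 and Itgb8, which activates TGF-beta, at 0.19 ± 0.66. Itgb8 was 68.8 CPM in knockdown 7 and at most 28.0 CPM in the other knockdown tumours. Itga5, the fibronectin receptor chain, was 637 and 346 CPM in the controls and 246 to 550 CPM in the knockdown tumours (-0.22 ± 0.27). Itga8 (0.59 ± 0.29) did not pass, although it did without knockdown 3 (edgeR, adjusted p = 0.027, and between 0.027 and 0.73 over all alternatives). Itga4 (0.35 ± 0.33) and Itga9 (0.31 ± 0.32), which were grouped apart from the RGD-binding chains, did not pass either.

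Itgb1, the beta1 chain that pairs with most of these alpha chains (mm9 chromosome 8, 131209554 to 131257100), was the most abundant gene of the 42 per kilobase of exon. It stood at 2735 and 1600 CPM in the controls and between 1015 and 1443 CPM in the knockdown tumours (median 1149). It fell 1.82-fold (log2 fold change -0.86 ± 0.19 SE; edgeR, adjusted p = 0.0086), and without control 1 the value was -0.42 (adjusted p = 0.27, and between 0.00024 and 0.27 over all alternatives). Per kilobase, its level was 292 ± 35.0 CPM per kb (SD, n = 9) in the knockdown tumours and 531 ± 197 CPM per kb (SD, n = 2) in the controls. Itga5 came next in the knockdown tumours at 85.6 ± 19.0 CPM per kb, followed by Lamb1 at 65.5 ± 10.7, Lamc1 at 53.2 ± 12.9 and Itgb5 at 48.5 ± 6.67 CPM per kb, where the gaps from Lamb1 to Lamc1 and from Lamc1 to Itgb5 were smaller than the SD of Lamc1. In the controls Itgb5 at 107 ± 9.18, Lamb1 at 105 ± 39.2 and Itga5 at 99.7 ± 41.8 CPM per kb followed Itgb1 and differed by less than their spread. Lama2 moved from rank 34 of the 42 genes in the controls to rank 17 in the knockdown tumours, and Itga1 from rank 29 to rank 16.

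**Figure D4:**
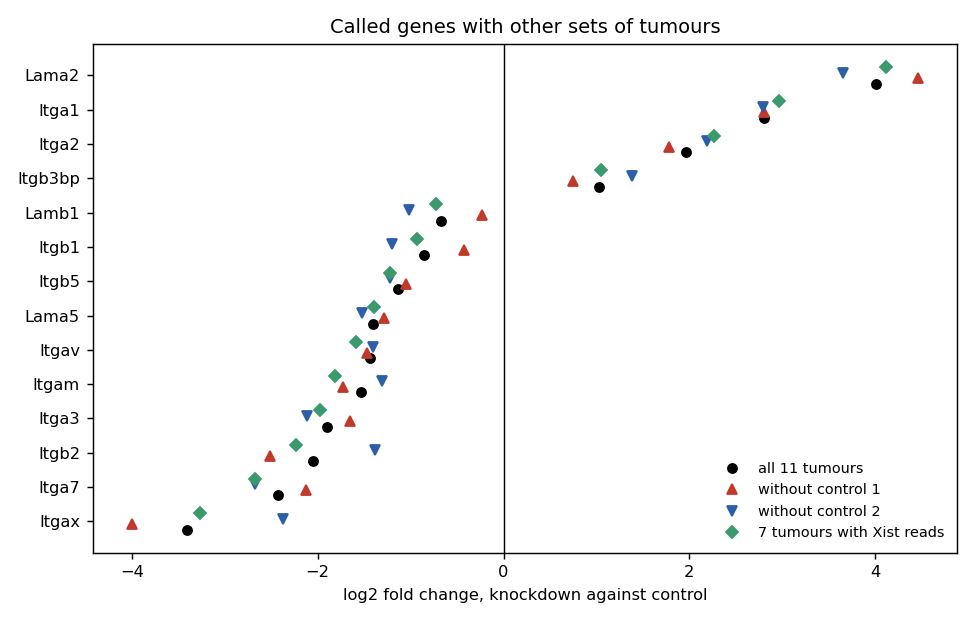
Log2 fold change (horizontal axis) of the 14 genes that passed the test, with all 11 tumours and without either control. The last set is the 7 tumours that have Xist reads, at 5 CPM or more. All values stay on their side of 0, and those of Lamb1 and Itgb1 lie nearest to 0 without control 1, at -0.23 and -0.42.

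Of the leukocyte integrins 3 of 4 fell. Itgb2, the CD18 chain shared by all of them (ENSMUSG00000000290, mm9 chromosome 10, 76992997 to 77028453), stood at 36.3 and 79.8 CPM in the controls and between 10.4 and 20.9 CPM in the knockdown tumours (median 11.4). It fell 4.15-fold with no overlap (log2 fold change -2.05 ± 0.30 SE; edgeR, adjusted p = 0.00087), and without control 2 the value was -1.38 (adjusted p = 0.036). Itgam, the CD11b chain of macrophages, microglia and neutrophils (mm9 chromosome 7, 135206154 to 135271674), stood at 66.1 and 88.1 CPM in the controls and between 18.9 and 40.2 CPM in the knockdown tumours (median 25.6), a fall of 2.89-fold (-1.53 ± 0.25 SE; edgeR, adjusted p = 0.0018). Itgax, the CD11c chain of dendritic cells and activated macrophages (mm9 chromosome 7, 135273061 to 135294171), stood at 21.9 and 67.8 CPM in the controls and between 1.71 and 8.18 CPM in the knockdown tumours (median 4.07). Its fall was 10.6-fold (-3.40 ± 0.41 SE; edgeR, adjusted p = 0.00034), a value that was -3.998 (adjusted p = 0.00065) when control 1 was left out and -2.37 (adjusted p = 0.013) when control 2 was. Over all alternatives the adjusted p ran from 5.0e-07 to 0.061 for Itgb2 and from 5.9e-10 to 0.052 for Itgax. Itgal, the CD11a chain of lymphocytes and other white blood cells, was 5.92 and 16.3 CPM in the controls and 2.90 to 8.18 CPM in the knockdown tumours, which overlap, and it did not pass (-1.02 ± 0.40 SE; edgeR, adjusted p = 0.084).

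Most markers of macrophages and microglia, of neutrophils and of mast cells also fell. The lists of lymphocytes with natural killer cells and of dendritic cells had medians of -0.55 and -0.39 on the log2 scale. In each, 1 gene was lower. In the same test 23.3% of all tested genes passed, with 13.0% lower. With 1 control left out fewer of all tested genes passed, so the counts given without a control have a lower background. Among 20 genes that mark macrophages and microglia 12 were lower and 0 higher (median -1.02 on the log2 scale), and their summed level was 1609 and 4144 CPM in the controls and 719 to 1620 CPM in the knockdown tumours. Without control 1 also 12 of them passed, but without control 2 it was 1. Of the 9 tested neutrophil markers 8 fell, with a summed level of 212 and 63.9 CPM in the controls and 3.00 to 11.1 CPM in the knockdown tumours. That sum was higher in control 1, while Itgb2, Itgam and Itgax were higher in control 2. Of 8 mast cell markers 7 fell (142 and 184 CPM against 2.19 to 29.1 CPM), or 4 without control 1 and 2 without control 2. Of 5 tested lymphocyte and natural killer cell markers 1 fell, and 7 others of that list lay below the filter. Its summed level overlapped, at 5.46 and 6.33 CPM in the controls and 0.265 to 25.4 CPM in the knockdown tumours. No marker of these lists was at 0 in all libraries. In bulk samples fewer cells of a type and less RNA per cell cannot be told apart, and the part of these cells in the fall of the integrins was not tested.

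Among the 9 knockdown tumours alone, the level of each leukocyte integrin was set against the mean log2(CPM + 1) of the macrophage and microglia markers, 4 relations in all. Pearson's r was 0.58 for Itgam (exact permutation p = 0.089, adjusted p = 0.35; Spearman's rho 0.67, exact permutation p = 0.059, adjusted p = 0.19) and 0.41 for Itgb2 (exact permutation p = 0.27, adjusted p = 0.44; rho 0.60, exact permutation p = 0.097, adjusted p = 0.19). It was 0.38 for Itgal (exact permutation p = 0.33, adjusted p = 0.44; rho 0.017, exact permutation p = 0.98, adjusted p = 0.98) and -0.18 for Itgax (exact permutation p = 0.60, adjusted p = 0.60; rho -0.33, exact permutation p = 0.39, adjusted p = 0.51). None of the 4 passed. Without knockdown tumours 3 and 5, the pair farthest from the median of the markers, r was 0.69 for Itgam and 0.23 for Itgb2. It was -0.86 for Itgal and -0.57 for Itgax. The exact permutation p values of these, in the same order and not adjusted, were 0.096, 0.59, 0.025 and 0.18. Leaving out knockdown 3 alone already turned the value of Itgal to -0.36.

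The other chains of blood cells were scarce. Itgb7, which pairs with Itga4 or Itgae on lymphocytes and mast cells, was 11.1 and 7.33 CPM in the controls and 1.78 to 6.00 CPM in the knockdown tumours, with no overlap, and missed the threshold (-1.13 ± 0.41 SE; edgeR, adjusted p = 0.065). Itgae, of lymphocytes in epithelia and some dendritic cells, was 1.15 and 4.95 CPM in the controls and 0.794 to 2.45 CPM in the knockdown tumours (-0.96 ± 0.51). Itga2b, the platelet chain, was 8.15 and 9.15 CPM in the controls and 7.03 to 14.05 CPM in the knockdown tumours (0.19 ± 0.26). Itgad, a relative of Itgax next to it on chromosome 7, had 34 counts over both controls and 15 over the 9 knockdown tumours. Itgb2l, a relative of Itgb2, had 14 counts over both controls and 3 over the knockdown tumours. Itgb6, of epithelia, had 1 count over the controls and 12 over the knockdown tumours, which is too few for a comparison at this depth.

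Of the genes that only share the naming pattern, Itgb3bp, a centromere protein also known as CENP-R, stood at 4.85 and 7.52 CPM in the controls and between 9.91 and 15.5 CPM in the knockdown tumours (median 11.9). It rose 2.04-fold (log2 fold change 1.03 ± 0.24 SE; edgeR, adjusted p = 0.010), with 0.75 without control 1 (adjusted p = 0.15, and between 0.00019 and 0.15 over all alternatives), and 4 other gene models overlap it. Itgb1bp1, an inhibitor of beta1 integrin activation, was 34.4 and 37.4 CPM in the controls and 27.0 to 51.0 CPM in the knockdown tumours (0.05 ± 0.19). Itgb1bp2, a muscle chaperone, lay at up to 1.93 CPM (0.78 ± 0.45) and did not pass.

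The partners of laminin in the basement membrane went both ways. Of 19 tested genes 3 rose and 6 fell, a share above the 23.3% of all tested genes, with a median log2 fold change of 0.04. Col4a1 and Col4a2, the main collagen IV chains, rose 2.60-fold to 1705 ± 498 CPM (SD, n = 9) and 2.80-fold to 852 ± 224 CPM (SD, n = 9), and Nid2, which links laminin to collagen IV, rose 2.88-fold to 62.8 ± 11.1 CPM (SD, n = 9). Col4a1 missed the threshold when control 1 (adjusted p = 0.096) or control 2 (adjusted p = 0.13) was left out, and Col4a2 when control 2 was (adjusted p = 0.082). The adjusted p over all alternatives ran from 0.00041 to 0.13 for Col4a1 and from 2.2e-05 to 0.082 for Col4a2. Col4a5 fell 3.61-fold to 30.03 ± 10.01 CPM, Sparc, a collagen chaperone, 2.62-fold to 974 ± 175 CPM, and Ntn4, which binds laminin gamma chains, 4.86-fold to 6.52 ± 2.95 CPM (each SD, n = 9).

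Of 17 genes of dystroglycan, its glycosylation and other laminin receptors 1 rose and 4 fell (median -0.03), near the 23.3% of all tested genes that passed. With 1 control left out fewer of all tested genes passed, so the counts given without a control have a lower background. Dmd, dystrophin, rose 2.60-fold to 29.7 ± 10.3 CPM (SD, n = 9) while its relative Utrn fell 1.90-fold to 79.3 ± 8.30 CPM (SD, n = 9). Large, the enzyme that builds the sugar chain to which laminin binds on dystroglycan, fell 2.28-fold. Sgcd, a sarcoglycan, fell 6.72-fold from 1.48 ± 0.128 CPM (SD, n = 2). Its median in the knockdown tumours was 0.0909 CPM, below the level of 3 counts in any library, so that fold is uncertain. With 1 control left out, 0 genes of this list passed without control 1 and 2 without control 2. Among 22 ligands of integrins 2 rose and 4 fell (median -0.05), a share near the 23.3% of all tested genes, and without control 1 and without control 2 it was 4 and 2 in all. Tnc, tenascin C of glioma matrix, fell 3.07-fold to 671 ± 166 CPM (SD, n = 9), Col1a2 fell 18.1-fold to 63.9 ± 50.5 CPM (SD, n = 9) and Tnn 6.64-fold, while Emilin1, a ligand of Itga4 and Itga9, rose 3.44-fold and Tnr 2.88-fold. Both of the latter lost their call without either control.

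Downstream of the receptors, 14 of 34 adaptors, kinases and cytoskeletal linkers fell and 2 rose (median -0.47 on the log2 scale). Over all tested genes 13.0% fell and 10.3% rose. The kinase Ptk2b fell 4.24-fold to 23.8 ± 8.40 CPM (SD, n = 9), and Fermt3, the kindlin of blood cells, fell 2.48-fold to 16.7 ± 2.92 CPM (SD, n = 9). Tgfb1i1, a paxillin relative, rose 4.35-fold to 78.9 ± 19.7 CPM (SD, n = 9) and Tns1, a tensin, 2.44-fold to 165 ± 29.8 CPM (SD, n = 9). With 1 control left out, 6 genes of this list passed without control 1 and 10 without control 2, and Fermt3 did not pass without control 2 (adjusted p = 0.061). Of 9 genes of latent TGF-beta, which integrins with the alpha v chain release, Ltbp1 fell 3.98-fold to 189 ± 74.8 CPM (SD, n = 9) and Ltbp2 3.87-fold to 17.0 ± 6.25 CPM (SD, n = 9). Of 9 tested ligands of leukocyte integrins 2 rose, Icam2 of endothelium 7.98-fold to 26.6 ± 8.16 CPM (SD, n = 9) and Jam3 1.46-fold, while the median of that list was -0.37. In both lists of 9 the share that passed was near the 23.3% of all tested genes.

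Markers of other cell types that can make these chains were read against the same 23.3% of all tested genes. Of 14 endothelial markers 5 rose and 1 fell (median log2 fold change 1.14), with summed levels of 488 and 305 CPM in the controls and 209 to 516 CPM in the knockdown tumours, and without either control it was 1. Of 10 mural cell markers 2 rose and 1 fell, at 469 and 531 CPM against 487 to 1434 CPM, the highest being knockdown 4, the tumour with most Lama2, and without control 1 and control 2 it was 0 and 1 in all. Of 9 tested fibroblast markers 2 fell, at 4240 and 4400 CPM against 681 to 4368 CPM, and without either control it was 1. Of 10 astrocyte markers 0 passed (10 did not, by edgeR), although their median log2 fold change was 0.89. Their summed level was 939 and 961 CPM in the controls and 587 to 1562 CPM in the knockdown tumours. Of 8 markers of neural stem cells 3 (Nes, Vim and Sox2) fell. The part of all these cell types in the levels of the integrins and laminins was not tested. The knockdown tumours 1, 7, 8 and 9 held under 5 CPM of Xist, and the other 7 tumours, called those with Xist reads, held 5 CPM or more. Within those 7 tumours, 5 knockdown and 2 control, 15 integrin and laminin genes passed, the 14 above among them. The log2 fold change there was 4.11 for Lama2 and 2.96 for Itga1. In that fit 29.3% of all tested genes passed, a higher background than the 23.3% with all tumours.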

How the data were processed

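The deposited table holds raw read counts per Ensembl gene for 11 libraries. Per the submitters' processing notes TopHat 1.4.0, HTSeq and build mm9 were used; the sources used here give no roles, settings or strand use, so where another gene model overlaps (21 of the 42 genes) its reads may be mixed in. Per the labels' protocols RNA was extracted with TRIzol and libraries followed the Illumina TruSeq protocol. Nothing in the labels says that tumours came from separate cell preparations, so the p-values reflect the spread among these libraries alone, part of which may be technical. The main test was that of edgeR 4.0.16 under R 4.3.3 (filterByExpr on the groups, TMM, glmQLFTest, 16241 genes kept, no covariate), tested on simulated data first; limma 3.58.1 voom and DESeq2 1.42.0 were alternatives. The SE is the log2 fold change over the square root of F. Levels per kb use merged exon lengths of GENCODE M21 (a later build, lengths only). Of 255 list entries 252 matched by symbol, 1 by alias and 2 not at all. Genes given in full are Lama2, the leukocyte integrins and all members past the threshold; from other lists up to 3 with the smallest p in each direction; some genes that enter the counts are not reported here by name. Members and lists were chosen with earlier results of these data known.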

Additional observations from a re-analysis of the deposited data

Results flagged for a closer look

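In 5 of the 38 tested genes 1 of the 9 knockdown tumours lay far above the other 8 by Dixon's criterion for the gap to the next tumour. The criterion is set to flag about 1 of 20 groups of normally distributed values. It was applied to CPM without taking logarithms, where that rate may not hold, so the 5 of 38 cannot be set against it. Lama4 was 496.7 CPM in knockdown 9 and 222 CPM in the next tumour. Lamc1 was 708.1 CPM in the same tumour and 440 CPM in the next. Itgb8 was 68.8 CPM in knockdown 7 against 28.0 CPM in knockdown 9. Itga2 was 44.5 CPM in knockdown 6 against 20.1 CPM in knockdown 5. Lama3 was 3.06 CPM in knockdown 1 against 1.91 CPM in knockdown 6.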

How the results depend on the processing

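Of the 14 genes that passed, 6 (Lama2, Itga1, Itga7, Itgav, Itgb5 and Itgam) passed under all 20 alternatives and 0 changed direction. With 1 library left out, 2 to 5 integrin and laminin genes were higher and 8 to 10 lower, 20 to 44 genes of the pathway lists passed (40 with all) and 21 to 62 of the marker lists (55 with all). The lowest counts come without control 1 (2 higher; 20 pathway genes) or control 2 (21 marker genes, 26 pathway genes), and 35 marker genes passed without control 1. The count over all genes was 3790, and 1290 without control 1, 1750 without control 2 and 1159 against a 1.5-fold change, where 2 integrin and laminin genes were higher, 19 pathway and 29 marker genes passed. Only numbers 1 and 2 occur in both groups, and the deviations of tumours of the same number from their group means correlated at -0.15 and 0.012. With 2 controls these deviations mirror each other, so the values cannot show whether the numbers pair tumours. A fit with the number as block draws its difference from numbers 1 and 2 alone, since the others occur only among knockdown tumours. With the replicate block 4 genes were higher and 5 lower, 20 pathway and 17 marker genes passed, and 686 of all genes. Values of 9 genes, none of which passed, changed sign; Itgae, at -0.96 with all libraries, did so without control 2. With the 7 libraries that have Xist reads, a choice made after seeing the data, these were Itgb8 -0.40, Lamb3 -0.0763, Itga6 0.0188 and Itgb1bp1 -0.0729; by voom Itgb8 -0.0544, Lamb3 -0.19 and Lama1 -0.28; with the block Itgb8 -0.37, Itga6 0.24 and Itgb1bp1 -0.16; without knockdown tumours 7 and 9 Itgb8 -0.43, Lamb3 -0.0340 and Itgb1bp1 -0.0600; with the stricter filter Itga6 0.00937; by DESeq2 and RLE Lama1 -0.0246 and -0.0231. Leaving out 1 library gave ranges of -0.60 to 0.29 for Itga5, -1.65 to 0.44 for Itgae, -0.14 to 0.88 for Itgb3, -0.28 to 0.57 for Itgb8, -0.21 to 0.18 for Itga6, -0.36 to 0.53 for Lama1, -0.0811 to 0.83 for Itga9 and -0.0433 to 0.11 for Itgb1bp1. The correlation with macrophage markers ran from -0.36 to 0.51 for Itgal (negative without knockdown 3) and from -0.33 to 0.0585 for Itgax (positive without knockdown 7). The Ezh2 difference in log2(CPM + 1) ran from -1.81 to -1.57, with p = 0.10 by exact permutation without either control (-1.79 and -1.58), the smallest p possible there. The causes were not tested. With 1 control left, that lone library is assumed to vary like the others. The 3-count floor limits Itgb6, Itgad and Itgb2l.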

Other observations

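Of 6 markers of dendritic cells, which are defined in part by Itgax, 1 rose and 1 fell, where 23.3% of all tested genes passed. Their median log2 fold change was -0.39. Their summed level was 33.2 and 23.4 CPM in the controls and 25.7 to 90.9 CPM in the knockdown tumours. Zbtb46 alone gave 83.7 of the 90.9 CPM in knockdown 4 and 22.7 of the 25.7 CPM in knockdown 9, so the sum mostly follows that gene there. Flt3, a receptor of dendritic cell precursors, was 22.7 and 5.14 CPM in the controls and 0.183 to 1.54 CPM in the knockdown tumours (log2 fold change -4.05; edgeR, adjusted p = 0.00057), while Zbtb46, a transcription factor of dendritic and endothelial cells, was 7.77 and 6.33 CPM in the controls and 22.7 to 83.7 CPM in the knockdown tumours (2.79; edgeR, adjusted p = 0.0026). Oligodendrocyte markers rose in 3 of 8 cases and fell in 0, among them Mbp, a myelin protein, from 26.5 and 7.77 CPM to between 87.8 and 251 CPM (3.36; edgeR, adjusted p = 0.0015).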
